A study of Mus musculus with 6 samples.

Results

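The 43 genes described here make or modify glycosaminoglycans, and they were chosen by name from the 54532 genes of the count table. Of the 43, 42 had 10 or more counts in at least 3 of the 6 libraries and were among the 14801 genes tested. The remaining gene, *Chst13*, a chondroitin 4-O-sulfotransferase, held 0, 1 and 1 counts in Gli1+ libraries 1, 2 and 3 and 17, 2 and 0 counts in the Gli1- libraries, so it was left out of the tests. The libraries came from *Gli1-CreERT2; tdTomato* (Ai9) mice on a c57BL/6 background, 1 month old and harvested 24 h after tamoxifen (TAM). CreER recombinase is produced under the control of the *Gli1* locus and is switched on by TAM, so a cell is marked red by tdTomato, and counts as Gli1+, only where recombination took place. Both populations carried the same alleles and received TAM, and cells stained for CD45, CD31 or Ter119 (markers of blood and vessel cells) were excluded before the tdTomato+ (Gli1+) and tdTomato- (Gli1-) cells were sorted. Each population has 3 RNA-seq libraries, numbered 1 to 3, and the study states that Gli1- cells came from the mice that gave the Gli1+ cells. The tissue is rib cartilage, digested overnight, in the study's methods and growth plate in the labels.

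Glycosaminoglycans are long, negatively charged sugar chains that hold water in cartilage and bind growth factors such as Hedgehog, BMP and FGF proteins. Most of them are built on a core protein: a short linker is attached to a serine, polymerases extend it as chondroitin or heparan sulfate, and sulfotransferases then decorate the chain with sulfate taken from the donor PAPS. Hyaluronan is made without a core protein or sulfate, and inherited defects of sulfate uptake, PAPS synthesis or chain synthesis cause chondrodysplasias in humans and mice.

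Totals lay between 17114101 and 18602482 counts per library, and 15000 genes had a count in Gli1+ replicate 1 against 20666 to 23360 in the other libraries. *Gli1*, whose locus drives the label, held 86, 104 and 152 counts in the Gli1+ libraries and 14, 19 and 46 in the Gli1- libraries, in the direction of the labels. Of 8 chondrocyte markers, 7 were above 0 in every library, and their summed level was 7452 to 18372 CPM (TMM-normalized CPM, that is counts scaled to library size) in Gli1+ and 5866 to 24494 CPM in Gli1- libraries, highest in replicate 2 of both populations. The largest of them was *Col2a1*, and only *Acan* and *Sox9* were lowest in replicate 2 of both populations. Of 7 leukocyte markers, 6 were above 0 in every library, and they summed to 39.2 to 166 CPM in Gli1+ libraries and to 56.1 to 3343 CPM in Gli1- libraries, with the highest value in Gli1- replicate 1. The 7 fibroblast markers summed to 1647 to 3889 CPM in Gli1+ and 2133 to 9585 CPM in Gli1- libraries, and the 4 hypertrophic markers to 3183 to 5388 CPM and 635 to 2418 CPM. *Mmp13*, a collagenase, was most of the hypertrophic sum in each library except Gli1- replicate 2. There *Col10a1*, the collagen that defines hypertrophic chondrocytes, was at 1781 CPM and *Mmp13* at 592 CPM. The means of *Mmp13* were 4349 CPM in Gli1+ and 552 CPM in Gli1- libraries (log2FC 2.98). Those of *Col10a1* were 130 and 717 CPM (log2FC -2.46), and *Ibsp* had a log2FC of -0.15. The 4 endothelial markers reached at most 11.8 CPM in any library, the 4 erythroid markers 18.6 CPM and the 5 skeletal muscle markers 35.2 CPM. The part of these differences in the values below was not tested, apart from the libraries left out where stated. In bulk RNA, fewer cells of a type and less RNA per cell cannot be told apart.

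Genes for each step from sugar supply to sulfated chains were detected in both populations. Levels were compared between genes in CPM per kb of gene length. *Chst11*, which places sulfate on the 4 position of chondroitin, was the highest of the 43, with a mean of 94.7 CPM per kb over the 6 libraries. It was followed by *Papss2* (67.4), which makes the sulfate donor PAPS, *Xylt1* (42.0), which starts the linker, *Ugdh* (37.9), which makes UDP-glucuronic acid, and *Chsy3* (32.7), a chondroitin polymerase. These 5 genes thus stand at donor supply, chain start, chain extension and sulfation. Among the genes tested, the lowest levels were those of the hyaluronan synthase *Has3* (0.233), the heparan 6-O-sulfotransferase *Hs6st2* (0.561), the keratan sulfotransferase *Chst1* (0.981) and the chondroitin 6-O-sulfotransferase *Chst3* (1.22).

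**Figure D1:**
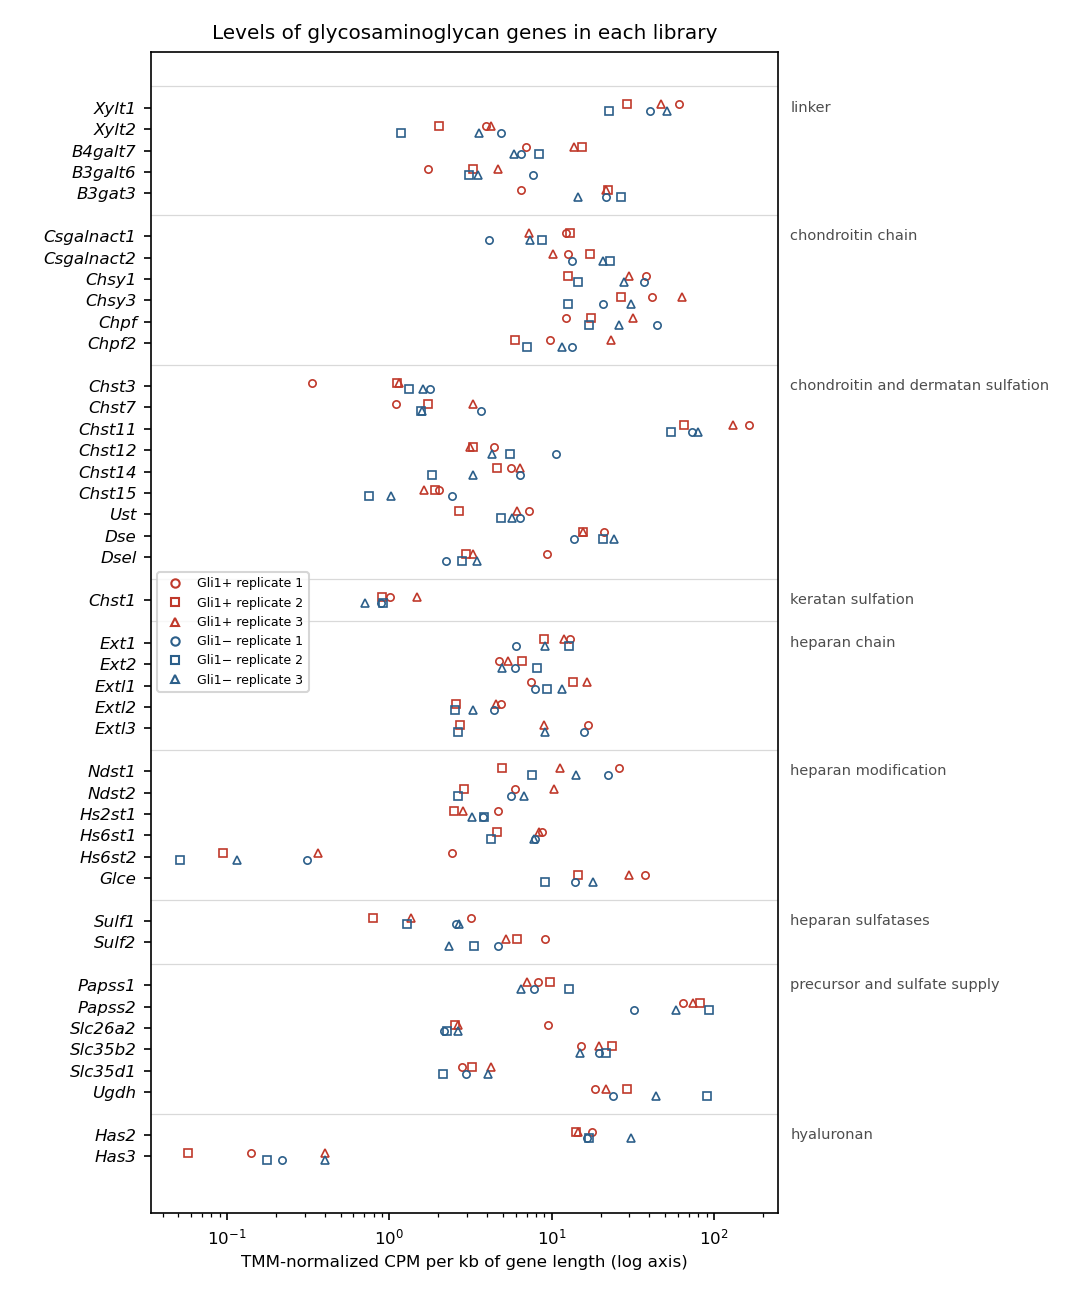
Level of each of the 42 genes tested in the 6 libraries (x axis, TMM-normalized CPM per kb of gene length on a log scale), grouped by role, with a point per library (red for Gli1+, blue for Gli1-). *Chst11* and *Papss2* lie farthest to the right, *Has3* and *Hs6st2* lie far to the left, and the colors overlap within most genes.

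When Gli1+ cells were compared with Gli1- cells, none of the members was called. With edgeR's quasi-likelihood test and Benjamini-Hochberg adjustment over all genes, 0 of the 42 members passed an adjusted p of 0.05 and a |log2FC| over 1, and 0 of the 14801 genes did (0%). The smallest adjusted p was 0.9999. At an unadjusted p under 0.05 there were also 0 members, against 3.47% of all genes, and the biological coefficient of variation between libraries of a population was 0.662. With the replicate number as a block, edgeR again called 0 members, and 5 of 42 had an unadjusted p under 0.05, against 8.61% of all genes. These were *Chsy3*, *Glce*, *Hs6st2* and *Sulf2*, higher in Gli1+ cells (4 of 42, against 3.36% of all genes), and *Ugdh*, lower (1 of 42, against 5.25%). DESeq2 called 0 members (0.203% of all genes called), and DESeq2 with the block called 1 member, *Chsy3*, against 2.89% of all genes. For all genes, 0.777% were called higher and 2.11% lower in Gli1+ cells. Since 1 of 42 is 2.38%, the share of members called in either direction was near that of all genes.

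Most members had a |log2FC| under 1. Of the 42, 25 were above 0 (59.5%, against 50.1% of all genes), and their median log2FC was 0.10, against 0.0013 for all genes. Only *Hs6st2*, *Slc26a2*, *Chsy3* and *Ugdh* exceeded 1 in either direction, which is 9.52% of the members against 16.7% of all genes. Libraries of the populations did not overlap for *Sulf2*, higher in Gli1+, and *Chst3*, lower, which is 2 of 42 against 8.49% of all genes (4.04% higher and 4.45% lower). Compared within a replicate number, 13 members had the same direction in 3 of 3 pairs, 31% against 37.4% of all genes (17.6% higher and 19.8% lower). Of these 13, *Chst11*, *Glce*, *Chsy3*, *Hs6st1*, *Sulf2*, *B4galt7*, *Ndst2*, *Extl2* and *Hs6st2* were higher in Gli1+ cells, and *Ugdh*, *Csgalnact2*, *Chst12* and *Chst3* were lower.

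**Figure D2:**
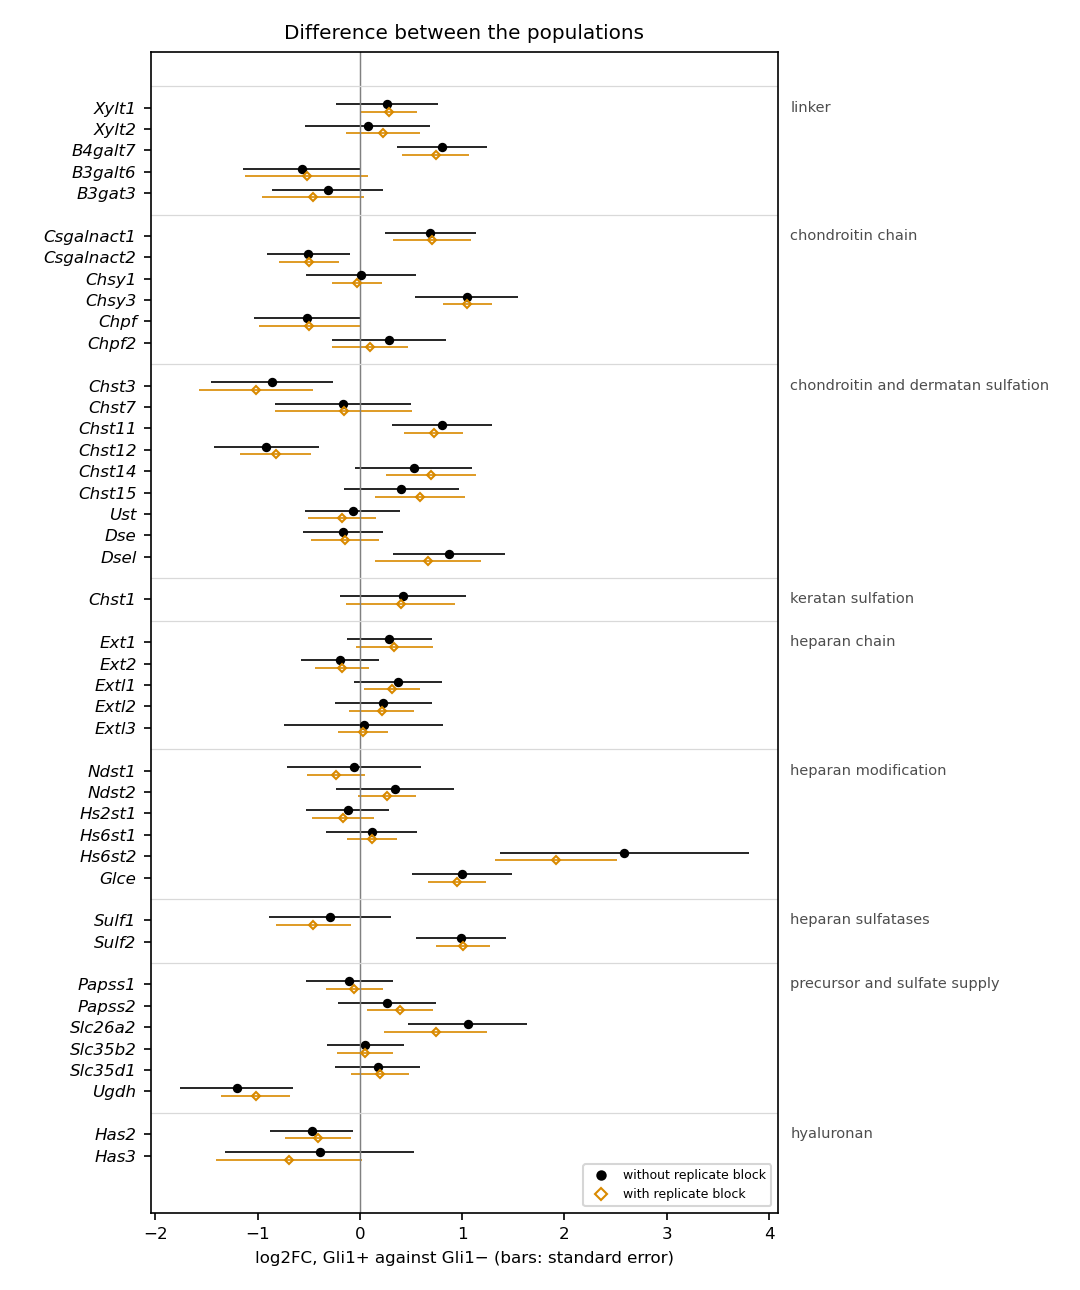
log2FC (Gli1+ over Gli1-, x axis) of the 42 genes tested, grouped by role, from edgeR's fit without (black circles) and with the replicate block (orange diamonds), with the standard error as bars. Without the block the values run from -1.21 for *Ugdh* to 2.59 for *Hs6st2*, and none was called.

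Of the 5 genes above, 3 have a start region in RefSeq on GRCm38.p6 that can be shown here, from 250 bases before to 50 after the start of transcription, 5′ to 3′ on the gene's own strand. They are printed because *Sulf2*, *Glce* and *Ugdh* had small unadjusted p-values in the blocked fit in different directions. Capitals mark GGGCGG or its reverse complement CCGCCC, the core of the SP1 motif. *Sulf2* has a pair of start regions, at chr2:166155634-166155933 and chr2:166155236-166155535 (minus strand), that of *Glce* lies at chr9:62122560-62122859 (minus strand), and that of *Ugdh* at chr5:65435793-65436092 (minus strand).
Sulf2, upstream start: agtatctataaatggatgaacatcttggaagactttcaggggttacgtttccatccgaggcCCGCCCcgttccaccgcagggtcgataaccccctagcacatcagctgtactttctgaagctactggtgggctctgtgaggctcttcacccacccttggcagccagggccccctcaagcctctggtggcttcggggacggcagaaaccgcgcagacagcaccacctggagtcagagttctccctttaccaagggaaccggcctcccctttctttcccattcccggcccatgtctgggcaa
Sulf2, downstream start: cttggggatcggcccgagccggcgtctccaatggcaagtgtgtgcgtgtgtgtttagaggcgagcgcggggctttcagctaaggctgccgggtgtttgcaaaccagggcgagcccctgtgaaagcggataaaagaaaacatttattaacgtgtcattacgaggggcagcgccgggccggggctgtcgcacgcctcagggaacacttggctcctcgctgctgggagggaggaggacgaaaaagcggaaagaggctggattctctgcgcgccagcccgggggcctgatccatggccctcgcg
Glce: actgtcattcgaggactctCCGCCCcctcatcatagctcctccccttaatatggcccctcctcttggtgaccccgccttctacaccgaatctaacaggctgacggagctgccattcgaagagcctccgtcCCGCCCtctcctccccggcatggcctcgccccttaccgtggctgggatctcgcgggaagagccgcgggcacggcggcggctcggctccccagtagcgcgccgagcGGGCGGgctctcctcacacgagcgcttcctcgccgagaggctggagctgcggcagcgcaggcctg
Ugdh: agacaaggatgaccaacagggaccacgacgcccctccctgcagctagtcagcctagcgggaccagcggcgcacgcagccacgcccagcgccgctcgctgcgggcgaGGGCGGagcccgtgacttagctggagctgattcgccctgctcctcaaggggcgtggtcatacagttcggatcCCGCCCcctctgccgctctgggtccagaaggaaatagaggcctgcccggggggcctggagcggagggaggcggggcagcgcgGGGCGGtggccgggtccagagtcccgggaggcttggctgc
The upstream *Sulf2* region holds the motif 1 time and the downstream one 0 times, whereas *Glce* and *Ugdh* each hold it 3 times, in regions of 68.0% and 71.0% GC. Over all members, 33 matched the RefSeq table with 41 start regions, of which 27 (65.9%) hold GGGCGG on either strand, against 35.7% of the 32851 regions in the table. The share among the start regions of the genes tested was not counted. The 9-base GLI motif GACCACCCA was in 0 of the 41 regions on either strand and in 0.253% of all regions. The motifs were chosen with the results known, a match is not a binding site, and no match says only that these letters are not in these windows.

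The linker is built by *Xylt1* or *Xylt2*, *B4galt7*, *B3galt6* and *B3gat3* in that order. *Xylt1* was at 591, 282 and 455 CPM in Gli1+ libraries 1 to 3 and at 391, 218 and 494 CPM in Gli1- libraries 1 to 3. The populations overlapped, replicate 2 was the lowest of each, and the log2FC was 0.27 ± 0.50 (standard error). *B3gat3*, which adds the last sugar of the linker, was at 10.4, 35.8 and 34.8 CPM in Gli1+ and 34.4, 43.0 and 23.4 CPM in Gli1- libraries, with a log2FC of -0.32 ± 0.54. Here Gli1+ replicate 1 stood below the other 5 libraries. *B4galt7*, which adds the first galactose, was the linker gene with the largest log2FC, 0.80 ± 0.44, and the Gli1+ library was the higher in 3 of 3 pairs. Its log2FC was between 0.58 and 1.05 with each library left out. *B3galt6* and *Xylt2* were at means of 3.99 and 3.29 CPM per kb, with log2FC values of -0.57 and 0.08.

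Chondroitin chains are started by *Csgalnact1* and *Csgalnact2* and extended by *Chsy1*, *Chsy3*, *Chpf* and *Chpf2*. *Chsy3* (ENSMUSG00000058152) was at 122, 78.0 and 187 CPM in Gli1+ libraries 1 to 3 and at 60.7, 36.7 and 90.5 CPM in Gli1- libraries 1 to 3. Each Gli1+ library was thus above the Gli1- library of its number, by a similar factor, while the populations overlapped because replicate 2 was low and replicate 3 high in both. Its log2FC was 1.04 ± 0.50 without the block (edgeR, adjusted p = 0.9999) and 1.05 ± 0.24 with it (edgeR, adjusted p = 0.381, unadjusted p = 0.00573). DESeq2 with the block gave a log2FC of 1.04 and an adjusted p of 0.0240. This call was kept without replicate 1 (DESeq2 adjusted p = 1.96e-04) and lost without replicate 2 (0.562) or replicate 3 (0.562), although the log2FC stayed between 1.01 and 1.06.

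The other polymerases had log2FC values nearer to 0 than *Chsy3*. *Chsy1*, its closest relative, was at 158, 52.3 and 124 CPM in Gli1+ and 156, 60.9 and 116 CPM in Gli1- libraries, so that its log2FC was 0.01 ± 0.54. Replicate 2 was the lowest of both populations, and 98.7% of the sum of squares of its log2 CPM went with the replicate number. *Chpf*, which helps to form the polymerase complex, had a log2FC of -0.51 ± 0.52, and *Chpf2* one of 0.28 ± 0.56. Of the exon bases of *Chpf2*, 44.1% are shared with *Smarcd3*, so reads of these genes may not be told apart. The difference between *Chsy3* and the other polymerases was not tested.

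*Csgalnact1* and *Csgalnact2*, which both add the first chondroitin sugar, had log2FC values of opposite sign, 0.69 ± 0.45 and -0.51 ± 0.41. Taken as a share of their summed CPM per kb, *Csgalnact1* made up 49.0, 42.8 and 41.5% in Gli1+ libraries 1 to 3 and 23.6, 27.5 and 26.0% in Gli1- libraries 1 to 3. The mean shares were 44.5% ± 4.02 and 25.7% ± 1.96 (SD, n = 3), and the populations did not overlap (2-sided exact permutation test, p = 0.1, adjusted p = 0.275 over 11 pairs). A share within a library does not depend on how libraries are scaled, and 0.1 is the smallest p that 3 libraries against 3 allow. A trend of levels with gene length, described below, can still enter a share where the genes of a pair differ in length.

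Among the genes for sulfation of chondroitin and dermatan, *Chst11* had the highest level per kb. It was at 909, 361 and 726 CPM in Gli1+ libraries 1 to 3 and at 406, 300 and 437 CPM in Gli1- libraries 1 to 3. In 3 of 3 pairs the Gli1+ library was the higher, with replicate 2 the lowest of both populations, and the log2FC was 0.80 ± 0.49 (edgeR, adjusted p = 0.9999) and 0.72 ± 0.29 with the block. *Chst12*, the other 4-O-sulfotransferase of the pair, was at 10.4, 7.74 and 7.40 CPM in Gli1+ and 25.0, 13.0 and 10.1 CPM in Gli1- libraries, with a log2FC of -0.91 ± 0.51. It was highest in Gli1- replicate 1, the library with the highest summed leukocyte markers, and without that library its log2FC was -0.45. *Chst11* made up 97.4, 95.2 and 97.7% of the pair in Gli1+ libraries 1 to 3 and 87.4, 90.8 and 94.9% in Gli1- libraries 1 to 3, without overlap (2-sided exact permutation test, p = 0.1, adjusted p = 0.275).

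Sulfate at the 6 position of chondroitin is added by *Chst3* and *Chst7*. *Chst3* (ENSMUSG00000057337, chromosome 10, 60181532 to 60219260, minus strand) was at 2.17, 7.25 and 7.46 CPM in Gli1+ libraries 1 to 3 and at 11.5, 8.55 and 10.5 CPM in Gli1- libraries 1 to 3. Every Gli1- library exceeded every Gli1+ library, with the widest gap in replicate 1, which held 41 and 223 counts. The log2FC was -0.86 ± 0.60 (edgeR, adjusted p = 0.9999, unadjusted p = 0.186) and between -1.12 and -0.50 with each library left out, nearest to 0 without Gli1+ replicate 1. *Chst7* was at 2.43 to 7.19 CPM in Gli1+ and 3.45 to 8.12 CPM in Gli1- libraries.

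*Dse* and *Dsel* convert glucuronic to iduronic acid and so turn chondroitin into dermatan sulfate. *Dse* was at 105, 77.1 and 77.6 CPM in Gli1+ and 68.7, 103 and 120 CPM in Gli1- libraries, with a log2FC of -0.17 ± 0.39. *Dsel* was at 53.8 CPM in Gli1+ replicate 1 and at 12.9 to 19.9 CPM in the other 5 libraries, and its log2FC was 0.87 with that library and 0.12 without it. The share of *Dse* in the pair was 69.3, 84.0 and 82.6% in Gli1+ libraries 1 to 3 and 86.1, 88.1 and 87.4% in Gli1- libraries 1 to 3, again without overlap (2-sided exact permutation test, p = 0.1, adjusted p = 0.275). *Chst14*, the dermatan 4-O-sulfotransferase, *Chst15*, which makes disulfated chondroitin, and *Ust*, the uronyl 2-O-sulfotransferase, had log2FC values of 0.53, 0.41 and -0.07. Without Gli1- replicate 1, those of *Chst14* and *Chst15* were 1.11 and 1.07. *Chst1*, the keratan sulfotransferase of the list, was at 2.70, 2.39 and 3.94 CPM in Gli1+ and 2.38, 2.45 and 1.90 CPM in Gli1- libraries, with a log2FC of 0.42 ± 0.62.

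**Figure D3:**
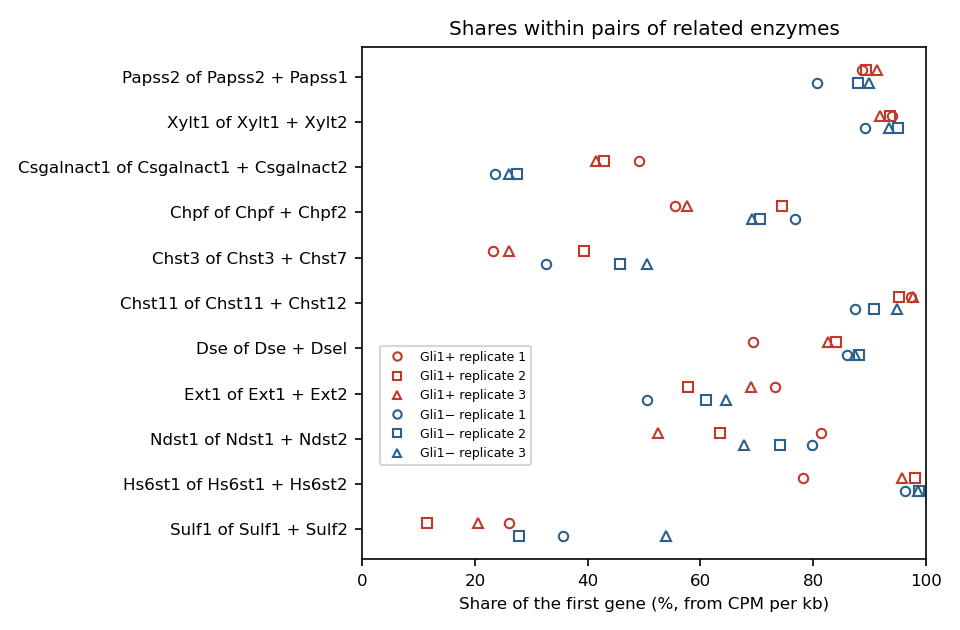
Share of the first gene of each of 11 gene pairs in the summed CPM per kb of the pair (x axis, percent), with a point per library and each pair's genes named on the y axis. Gli1+ and Gli1- libraries separate for *Csgalnact1*, *Chst11*, *Dse* and *Sulf1* and overlap for the other 7 pairs.

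Heparan chains are polymerized by *Ext1* with *Ext2*, while *Extl1*, *Extl2* and *Extl3* encode related transferases. *Extl1* was at 32.1, 58.3 and 71.4 CPM in Gli1+ and 34.1, 40.5 and 50.2 CPM in Gli1- libraries, with a log2FC of 0.37 ± 0.43. *Ext1*, in which mutations cause multiple exostoses, was at 105, 72.2 and 96.4 CPM in Gli1+ and 48.8, 103 and 73.0 CPM in Gli1- libraries, with a log2FC of 0.29 ± 0.42. Neither gene separated the populations, and *Ext2* had a log2FC of -0.19 ± 0.38. *Extl3*, which adds the first heparan sugar, ran from 16 to 101 CPM over the libraries but had a log2FC of 0.04, since replicate 2 was lowest and replicate 1 highest in both populations. In *Extl3*, 99.9% of the sum of squares of log2 CPM went with the replicate number.

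The chain is then modified by *Ndst1* and *Ndst2*, which replace acetyl groups by sulfate, by the epimerase *Glce*, and by *Hs2st1*, *Hs6st1* and *Hs6st2*, which add O-sulfate. *Glce* (ENSMUSG00000032252, chromosome 9, 62057248 to 62122655, minus strand) was at 255, 98.4 and 203 CPM in Gli1+ libraries 1 to 3 and at 94.3, 61.9 and 123 CPM in Gli1- libraries 1 to 3. In 3 of 3 pairs the Gli1+ library was the higher, though Gli1+ replicate 2 lay within the range of the Gli1- libraries. Its log2FC was 1.00 ± 0.49 (edgeR, adjusted p = 0.9999) and 0.94 ± 0.28 with the block (edgeR, adjusted p = 0.481, unadjusted p = 0.0182). *Ndst1* was at 157, 30.2 and 68.5 CPM in Gli1+ and 135, 45.9 and 85.8 CPM in Gli1- libraries, a log2FC of -0.06 ± 0.65 in which replicate 1 was the highest of both populations.

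*Hs6st2* (ENSMUSG00000062184, chromosome X, 51387212 to 51681856, minus strand) had the largest log2FC of the 42, on few reads. It held 359, 12 and 54 counts in Gli1+ libraries 1 to 3 and 47, 6 and 17 counts in Gli1- libraries 1 to 3, or 19, 0.737 and 2.84 CPM against 2.43, 0.398 and 0.899 CPM. Gli1+ replicate 1 was the highest library by far, and the populations overlapped. The log2FC was 2.59 ± 1.22 (edgeR, adjusted p = 0.9999), 1.92 ± 0.59 with the block (edgeR, adjusted p = 0.486, unadjusted p = 0.0203) and 0.48 without Gli1+ replicate 1. *Hs6st1*, which has the same activity, made up 78.1 to 98% of the pair in Gli1+ and 96.2 to 98.8% in Gli1- libraries, and its own log2FC was 0.12 ± 0.44. *Ndst2* and *Hs2st1* had log2FC values of 0.34 and -0.12.

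*Sulf1* and *Sulf2* encode extracellular sulfatases that remove 6-O-sulfate from finished heparan chains. *Sulf2* (ENSMUSG00000006800, chromosome 2, 166073089 to 166155663, minus strand) was at 53.0, 35.9 and 30.8 CPM in Gli1+ libraries 1 to 3 and at 27.2, 19.5 and 13.6 CPM in Gli1- libraries 1 to 3. The populations did not overlap, with the lowest Gli1+ library (30.8 CPM) close to the highest Gli1- library (27.2 CPM). The log2FC was 0.99 ± 0.44 (edgeR, adjusted p = 0.9999, unadjusted p = 0.0540) and 1.01 ± 0.26 with the block (edgeR, adjusted p = 0.427, unadjusted p = 0.0104). With single libraries left out it ranged from 0.70 to 1.26. *Ncoa3* on the opposite strand shares 2.62% of the exon bases of *Sulf2* and had a log2FC of the opposite sign, -0.93 ± 0.42.

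*Sulf1*, the other sulfatase, was at 35.9, 8.97 and 15.3 CPM in Gli1+ and 28.9, 14.5 and 30.5 CPM in Gli1- libraries, with a log2FC of -0.30 ± 0.59. Its share of the pair was 26.0, 11.5 and 20.5% in Gli1+ libraries 1 to 3 and 35.6, 27.8 and 53.8% in Gli1- libraries 1 to 3, without overlap (2-sided exact permutation test, p = 0.1, adjusted p = 0.275). The mean shares were 19.4% ± 7.33 and 39.1% ± 13.3 (SD, n = 3).

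**Figure D4:**
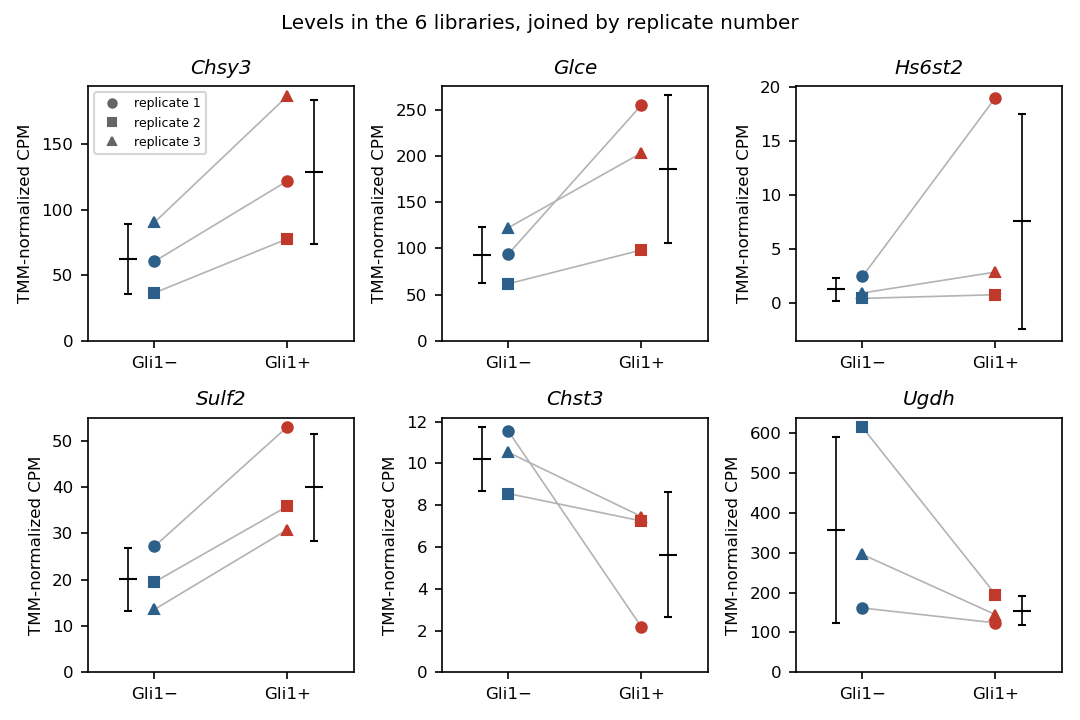
TMM-normalized CPM (y axis) of *Chsy3*, *Glce*, *Hs6st2*, *Sulf2*, *Chst3* and *Ugdh* in each Gli1+ and Gli1- library, with lines joining libraries of the same replicate number and bars for the mean ± SD of 3 libraries. *Sulf2* and *Chst3* separate the populations by library, and *Chsy3* and *Glce* are higher and *Ugdh* lower in Gli1+ cells in each pair.

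Sugar and sulfate supply held the member with the most negative log2FC. *Ugdh* (ENSMUSG00000029201, chromosome 5, 65413221 to 65435949, minus strand) oxidizes UDP-glucose to UDP-glucuronic acid, a building block of chondroitin, heparan and hyaluronan. It was at 124, 195 and 145 CPM in Gli1+ libraries 1 to 3 and at 161, 614 and 295 CPM in Gli1- libraries 1 to 3. Gli1- replicate 2 was the highest library by far, Gli1+ replicate 2 was above Gli1- replicate 1, and each Gli1+ library was below the Gli1- library of its number. The log2FC was -1.21 ± 0.56 (edgeR, adjusted p = 0.9999, unadjusted p = 0.0614), -1.02 ± 0.33 with the block (edgeR, adjusted p = 0.503, unadjusted p = 0.0249) and -0.58 without Gli1- replicate 2. DESeq2 with the block gave an adjusted p of 0.114 over 3 replicates and called *Ugdh* without replicate 1 (adjusted p = 9.72e-07) but not without replicate 2 (0.824) or replicate 3 (0.612).

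*Papss2*, the main PAPS synthase of cartilage, was at 234, 297 and 271 CPM in Gli1+ and 117, 341 and 210 CPM in Gli1- libraries. Both the lowest and the highest library were Gli1-, and the log2FC was 0.26 ± 0.48. Its share of the sum with *Papss1* was 88.6 to 91.3% in Gli1+ and 80.6 to 90.0% in Gli1- libraries. *Slc26a2*, the sulfate transporter mutated in diastrophic dysplasia, was at 117 CPM in Gli1+ replicate 1 and at 26.8 to 32.7 CPM in the other 5 libraries, so its log2FC was 1.05 ± 0.58 with that library and 0.11 without it. *Slc35b2*, which carries PAPS into the Golgi, and *Slc35d1*, which carries nucleotide sugars into the endoplasmic reticulum, had log2FC values of 0.05 and 0.17.

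*Has2*, a hyaluronan synthase, was at 75.0, 60.1 and 61.2 CPM in Gli1+ and 69.5, 71.9 and 131 CPM in Gli1- libraries. The populations overlapped, and the log2FC was -0.47 ± 0.41. *Has3* was at 0.368 to 2.57 CPM in Gli1+ and 1.13 to 2.54 CPM in Gli1- libraries. *Has1*, which is not among the 43 genes, was the third hyaluronan synthase measured, at 24.7, 116 and 41.6 CPM in Gli1+ and 312, 530 and 212 CPM in Gli1- libraries, without overlap. Its log2FC was -2.53 ± 0.68 (edgeR, adjusted p = 0.9999, unadjusted p = 0.00575) and its level was among the 5 highest per kb of its list.

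The variation of the members between libraries was divided between the replicate number and the population. A median of 49.3% of the sum of squares of log2 CPM went with the replicate number and 15% with the population, and in 31 of 42 members (73.8%) the replicate number took the larger part. With no effect of either, the degrees of freedom alone give mean shares of 40% and 20%. The medians given here cannot be set directly against these means. For all genes the medians were 61.2% and 10.8%, and the replicate number took the larger part in 82.2%. With 2 degrees of freedom against 1, it would take the larger part in most genes even with no effect of either. Of the members, 17 of 42 (40.5%, against 27.4% of all genes) were lowest in replicate 2 of both populations, and 9 (21.4%, against 31.7%) were highest there. The 17 include *Chst11*, *Xylt1*, *Chsy1*, *Chsy3*, *Glce*, *Extl3* and *Ndst1*, and the 9 include *Papss2* and *Ugdh*. The chondrocyte marker sum, of which *Col2a1* was the largest part, was highest in replicate 2 of both populations. *Col9a1*, *Matn1*, *Comp*, *Hapln1* and *Cnmd* were also highest there, while *Acan* and *Sox9* were lowest there in both populations. The part of these markers in the pattern of the members was not tested.

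Levels also varied with gene length in some libraries. Across the 14801 genes, the deviation of a gene from its mean over libraries correlated with its length at a Spearman rho of 0.41 in Gli1+ replicate 1, -0.42 in Gli1+ replicate 2 and -0.33 in Gli1- replicate 2, and between 0.013 and 0.21 in the other 3 libraries. Genes share the library in this correlation, so it only describes the libraries. The members were longer than most genes, with a median of 5266 bases against 4042, and their median deviation on the log2 scale was 0.30, -0.24 and 0.27 in Gli1+ replicates 1, 2 and 3 and 0.092, -0.33 and -0.024 in Gli1- replicates 1, 2 and 3. Gli1+ replicate 3, with a rho of 0.030, was thus nearly as high as Gli1+ replicate 1, and the deviations did not follow rho in every library. With the trend removed, a correction chosen after seeing the data, the median log2FC of the members was 0.14. The log2FC of *Slc26a2* was then 0.65, that of *Chst12* -0.63, that of *Hs6st2* 2.32, that of *Chsy3* 1.16, that of *Glce* 0.94 and that of *Ugdh* -1.26. At an unadjusted p under 0.05, 3 of 42 members (*B4galt7*, *Glce* and *Sulf2*) passed edgeR's test then, all higher in Gli1+ cells, against 4.68% of all genes (1.96% higher and 2.72% lower), and 0 passed after adjustment.

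**Figure D5:**
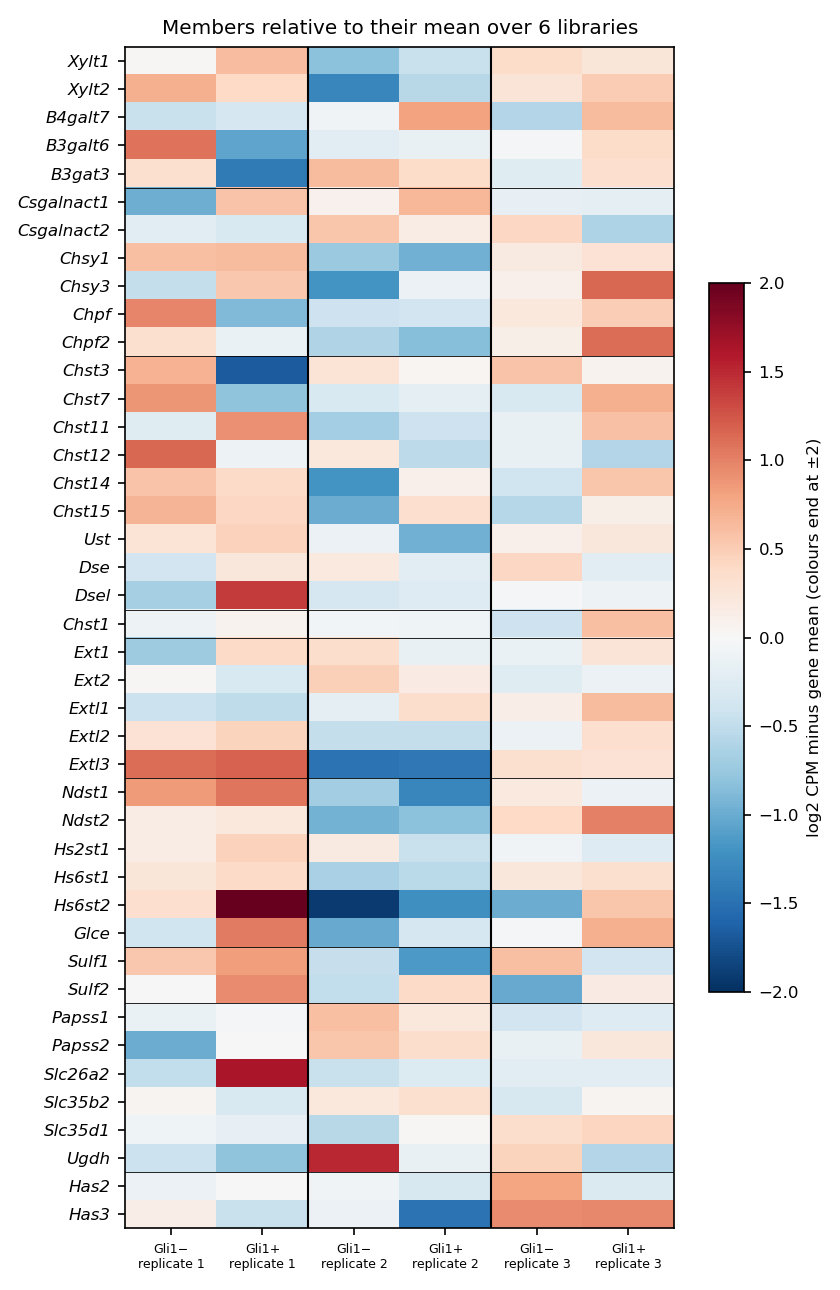
Deviation of each of the 42 genes tested from its mean over the 6 libraries (log2 CPM, color), with genes as rows grouped by role and libraries as columns. Replicate 2 of both populations is low for 17 of the 42 genes, and Gli1+ replicate 1 stands out for *Hs6st2*, *Slc26a2* and *Dsel*.

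The rest of the pathway was read from 3 further lists. Of 38 other synthesis genes, which include further sulfotransferases, sugar-nucleotide enzymes and Golgi transporters, 31 were tested and 16 had a log2FC above 0, with a median of 0.09. None was called, and 1 higher and 2 lower genes had an unadjusted p under 0.05, against 1.43% and 2.04% of all genes. The 5 with the highest level per kb were *Uap1* and *Gfpt2*, which make UDP-N-acetylglucosamine, *Has1*, the UDP-glucose enzyme *Ugp2*, and the Golgi phosphatase *Impad1*, with log2FC values of -0.55, -0.37, -2.53, -0.42 and 0.34. Chosen after their values were seen, the other genes with an unadjusted p under 0.05 were *Chst2*, which sulfates keratan and other N-acetylglucosamine chains (log2FC 1.5 ± 0.49), and the heparan 3-O-sulfotransferase *Hs3st1* (-2.12 ± 0.69). These 3 genes, *Has1* included, also made up the 1 higher and 2 lower of the blocked edgeR fit, against 3.36% and 5.25% of all genes. DESeq2 with the block called them too, where 0.777% of all genes were called higher and 2.11% lower. Of the list, 2 higher and 2 lower genes did not overlap between the populations, against 4.04% and 4.45% of all genes. Among them were *Chst2*, at 18.0 to 23.5 CPM in Gli1+ and 4.97 to 11.4 CPM in Gli1- libraries, and *Hs3st1*, at 0.582 to 2.76 CPM and 6.82 to 8.49 CPM.

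Of 32 core proteins that carry the chains or are related to those that do, 30 were tested and 11 had a log2FC above 0, with a median of -0.24. None was called, and 0 higher and 2 lower genes had an unadjusted p under 0.05 in edgeR's test, against 1.43% and 2.04% of all genes. With the replicate block there were 2 higher genes, *Hspg2* and *Cd44*, and 5 lower genes, *Fmod*, *Kera*, *Gpc6*, *Srgn* and *Prg4*, against 3.36% and 5.25% of all genes. The 5 at the highest level per kb were *Col9a2*, *Sdc4*, *Bgn*, *Dcn* and *Fmod*, with log2FC values of -0.52, -0.29, -0.37, -0.39 and -1.23. The standard errors of these 5 were between 0.55 and 0.96, so that each of the first 4 was within its own error of 0. As with those of the blocked fit, chosen after their values were seen, the 2 lower genes without the block were *Prg4*, which encodes lubricin (log2FC -1.24 ± 0.45), and *Srgn*, the serglycin gene of blood cells (-1.68 ± 0.62). *Srgn* was at 79.0 CPM in Gli1- replicate 1, where the leukocyte markers were highest, and at 139 and 48.1 CPM in Gli1- replicates 2 and 3.

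Of 20 degradation genes, 17 were tested and 5 had a log2FC above 0, with a median of -0.20, and 0 had an unadjusted p under 0.05 in edgeR's test, where 50.1% of all genes were above 0 and 3.47% had such a p. Among those at the highest level per kb were the lysosomal enzymes *Hexa* and *Hgsnat* and the surface hyaluronidase *Tmem2*. Their log2FC values were -0.81, -0.02 and 0.11.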

How the data were processed

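RNA-seq was done on 3 Gli1+ and 3 Gli1- populations. The authors deposited 1 table of counts, whole numbers of reads per gene and library without normalization, with gene lengths and coordinates. The submitters' processing notes name HISAT2 2.0.5, featureCounts 1.5.0-p3 and mm10. The annotation and use of strand are not given in the sources used here, so reads of overlapping genes may not be told apart. Of the 54532 genes, 54495 were found in GENCODE M21 and 53548 of these had the same coordinates, 39 of the 43 members among them. Sequences are from RefSeq.

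Genes were filtered with filterByExpr (minimum count 10), scaled by TMM and tested with edgeR 4.0.16 (quasi-likelihood, R 4.3.3) over all 14801 genes, with Benjamini-Hochberg adjustment. A gene was called where its adjusted p was under 0.05 and its |log2FC| over 1, the thresholds of the study's methods. Errors of log2FC are standard errors, and values of libraries are TMM-normalized CPM. Shares of gene pairs were tested by exact permutation. The tests were checked on simulated counts, which had a smaller spread between libraries than these data and no effect of the replicate number. That check therefore does not give the power or error of the tests here. The alternatives were the replicate block, DESeq2 1.42.0 (Wald test), RLE scaling, no filter, the adjusted p alone and each library left out. A trend with gene length (lowess span 0.3) was removed as an alternative chosen after seeing the data.

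Values by library are given for members whose populations did not overlap, that had an unadjusted p under 0.05 in either edgeR fit or were called by DESeq2 with the block, and for the 2 members at the highest CPM per kb of each role. Of each further list, the 5 genes at the highest CPM per kb are named, except that some members of the degradation list are not reported here. *B4galt7*, *Chst12*, *Dsel* and *Slc26a2* were chosen for mention after their values were seen. The members and lists were chosen with earlier results of these data known. Libraries held 17114101 to 18602482 counts, so counting error was small beside the spread between libraries for all but the lowest genes.

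In the study, Gli1- cells were taken from the mice that gave the Gli1+ cells, with 3 biological replicates a group, but neither it nor the labels say that a replicate number marks a mouse. Once population means were subtracted, libraries sharing a number correlated at 0.223, 0.720 and 0.471 for numbers 1, 2 and 3, and the numbers were therefore treated as pairs. Of the other combinations, Gli1+ replicate 1 with Gli1- replicate 3 reached 0.274, above the value for number 1, and Gli1+ replicate 3 with Gli1- replicate 1 reached 0.107. Genes are not independent replicates, and these coefficients only describe the libraries. The fit without the block was kept as the main one because the study's methods name no block. If the replicates share cells or mice, the p-values measure technical spread only.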

Additional observations from a re-analysis of the deposited data

How the results depend on the processing

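The number of members called was 0 with edgeR, with and without the replicate block, and 0 to 4 over the fits that left out a library or a replicate number. DESeq2 with the replicate block called 1 member. The 4 were *B4galt7*, *Chsy3*, *Sulf2* and *Ugdh*, called by DESeq2 with the block without replicate 1. Over all genes, the count was 0 in the comparison reported, 30 with DESeq2, 428 with DESeq2 and the replicate block, 267 without a filter on low counts (edgeR, 28536 genes tested), and 0 to 781 over the fits that left something out. The cause was not tested. An adjusted p under 0.05 alone gave the same member count as with the log2FC threshold in edgeR's fit.

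Of 672 values of log2FC (42 genes, 16 alternatives), 605 kept their direction and call, 62 reversed and 5 gained a call, and 19 genes had none reversed. *Chsy1* was at -0.029 with edgeR and the replicate block, -0.00029 with DESeq2 and with RLE scaling, -0.041 with DESeq2 and the block, and -0.049 without a filter. *Extl3* was at -0.045 without a filter and -0.0017 with the length trend removed. *Chst7* was at 0.0010 and *Papss1* at 0.055 with the length trend removed and the block, and *Papss1* at 0.051 without the block. With single libraries (edgeR) or replicate numbers (DESeq2 with the block) left out, the log2FC of 23 genes changed sign in at least 1 fit. Its range was -0.034 to 0.53 for *Xylt1*, -0.36 to 0.50 for *Xylt2*, -1.03 to 0.23 for *B3galt6*, -0.98 to 0.14 for *B3gat3*, -0.35 to 0.34 for *Chsy1*, -0.99 to 0.14 for *Chpf*, -0.45 to 0.62 for *Chpf2* and -0.79 to 0.59 for *Chst7*. It was -0.37 to 0.24 for *Ust*, -0.53 to 0.11 for *Dse*, -0.011 to 1.14 for *Dsel*, -0.066 to 0.74 for *Ext1*, -0.69 to 0.67 for *Extl3*, -0.88 to 0.36 for *Ndst1*, -0.20 to 0.68 for *Ndst2* and -0.47 to 0.042 for *Hs2st1*. It was -0.16 to 0.34 for *Hs6st1*, -1.04 to 0.040 for *Sulf1*, -0.30 to 0.20 for *Papss1*, -0.048 to 0.69 for *Papss2*, -0.12 to 0.24 for *Slc35b2*, -0.055 to 0.43 for *Slc35d1* and -1.41 to 0.033 for *Has3*.

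With 3 libraries a population, the coefficient of variation was 0.662 in edgeR's fit without the block. The adjusted p of every member was at least 0.381 in edgeR's fit with the block, and for *Has3*, *Chst1* and *Hs6st2* few counts add counting error.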
